A study of Manihot esculenta with 4 samples.

Results

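The genes described here were close to silent in leaves of unstressed cassava and more abundant in leaves of drought-stressed plants of both cultivars studied. A gene belonged to this set if its tag was placed on a numbered chromosome, its locus spanned at least 500 bases, and its mean over the 4 libraries was at least 1 and below 300 FPKM. It also had to lie below 1 FPKM in both control libraries and to reach a log2 ratio of drought to control of at least 1 in each cultivar, on the scale of log2(FPKM + 1). FPKM are fragments per kilobase of transcript, scaled to the mapped fragments of the library, and a log2 ratio of 1 is a 2-fold difference of FPKM + 1. Of 27146 genes in the deposited files, 18602 met the limits on position, length and mean and are called eligible. Of these, 132 were members. Their control values, drought values and both drought ratios were what chose them, so these values are given as a description, without a test.

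Leaf RNA of Manihot esculenta was sequenced in 4 libraries, 1 per group. KU50 control and Xinxuan048 control came from plants under normal conditions, and KU50 drought and Xinxuan048 drought from plants under drought stress. The labels name no transgene or added agent, and give no length or severity of the drought, no plant age and no number of plants per library. With 1 library per group no value has a replicate, and a difference between libraries cannot be told apart from a difference between conditions. In RNA from whole leaves, more cells that express a gene and more RNA per cell also cannot be told apart.

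As background, a plant that loses water raises its level of the hormone abscisic acid, which closes stomata and, through a phosphatase and kinase relay, activates transcription factors in the leaf. Many of the genes such factors act on are nearly off in watered leaves, among them genes for late embryogenesis abundant proteins and dehydrins, which protect proteins and membranes in drying cells, and genes for making osmolytes. Cassava, a tropical root crop, is known for closing its stomata early and shedding leaves in dry soil. The files pair the locus tags with no names or descriptions, and 0 of 27146 tags matched a table of 34312 RefSeq cassava genes. No member could therefore be assigned to any of these classes. Lists of drought and leaf marker genes chosen by description could not be applied, and the leaf label was not checked against markers.

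The files listed 24405 to 25336 genes per library, and the median listed gene had 5.95 FPKM (control) and 7.63 (drought) in KU50 and 5.33 and 7.24 in Xinxuan048. Genes missing from a file are called unlisted in that library and were set to 0 FPKM. The sources used here do not give the number of fragments per library, but low values show what 1 fragment was worth. Among listed loci of 1000 to 2500 bases, the lowest products of FPKM and locus length piled up at a step. Its place, taken as the value that bounds the lowest 1% of these products, was 49.3 for the control and 50.8 for the drought library of KU50, and 46.6 and 59.4 for those of Xinxuan048. On that measure, which overstates the number for a locus with introns, the listed members had a median of 17.8 fragments in KU50 control and 19.6 in Xinxuan048 control. At most 10 fragments lay behind 30 of 119 listed members in KU50 control and 33 of 118 in Xinxuan048 control. Under drought the medians were 169 and 128 fragments, and 0 of 132 members had 10 or fewer in either drought library. The rule nearly fixes this last count, since it requires at least 1 FPKM under drought and a locus of at least 500 bases. The control values are therefore much less exact than the drought values.

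Most members were listed at a low level in control leaves already, 111 of 132 in all 4 libraries, and reached a modest level under drought. The median member of KU50 had 0.461 FPKM in control and 3.74 under drought, where values lay between 1.04 and 177. The median member of Xinxuan048 had 0.400 FPKM in control and 3.28 under drought, where values lay between 1.05 and 101. The median member stood at percentile 36.6 of the genes listed in KU50 drought and at percentile 35.5 of those in Xinxuan048 drought. Only 21 members reached the median listed gene in KU50 drought, and 17 in Xinxuan048 drought. Their ratios were thus larger than their levels were high, and few members became abundant transcripts of the leaf. By the lower of its drought values, a member lay below 2 FPKM in 31 cases, from 2 to below 5 in 78, from 5 to below 10 in 16, and at 10 or more in 7. Summed over all members, the share of a library's FPKM was 0.00934% in control and 0.147% under drought for KU50, and 0.00900% and 0.106% for Xinxuan048.

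**Figure D1:**
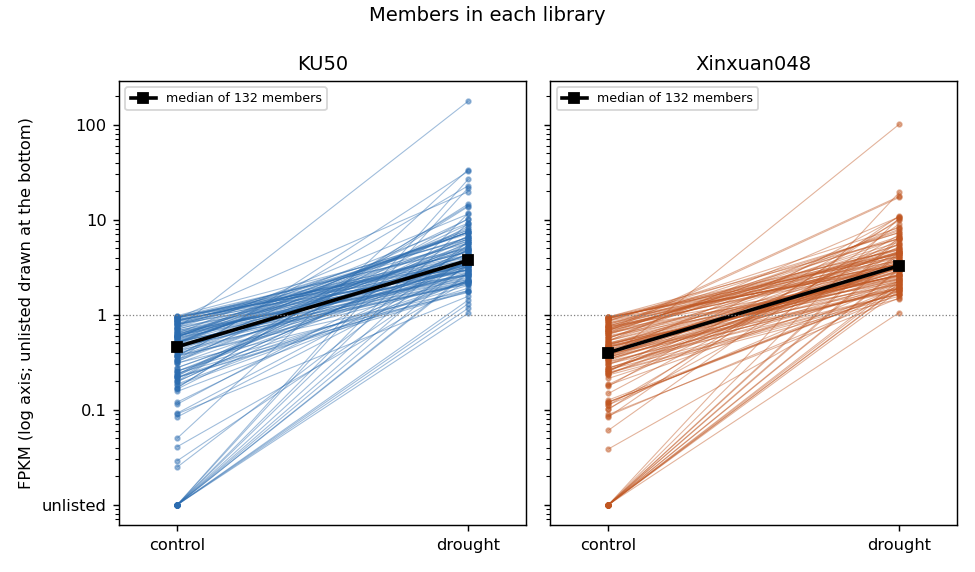
FPKM of the 132 members in each library, on a log axis, with 1 line per gene from control to drought within a cultivar and unlisted genes drawn at the bottom. Black squares are medians, which are 0.461 FPKM (control) and 3.74 (drought) for KU50, and 0.400 and 3.28 for Xinxuan048, and 1 gene stands far above the rest under drought in both cultivars.

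The median log2 ratio of drought to control was 1.72 in KU50 and 1.55 in Xinxuan048, on the scale of log2(FPKM + 1). Across all eligible genes the medians were 0.31 and 0.37, so the members stood 1.41 and 1.18 above them. A log2 ratio of at least 1 was reached in KU50 by 10.8% of eligible genes, in Xinxuan048 by 10.3% and in both by 4.57%. All 132 members reach it by the rule, and nothing is read from that count. Adding 1 to each value shrinks ratios of genes this low. For the 111 members listed in all 4 libraries, the plain ratio of FPKM had a median of 8.37 in KU50, with a range from 3.14 to 245, and of 7.23 in Xinxuan048, from 3.38 to 293. Large ratios were few. The mean of the 2 log2 ratios was below 2 in 95 members, from 2 to below 3 in 25, from 3 to below 4 in 9, and 4 or more in 3.

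**Figure D2:**
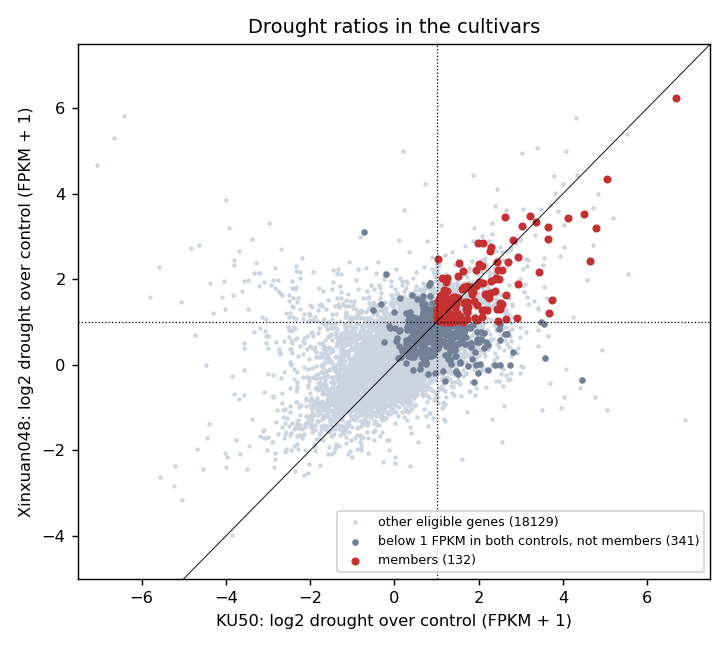
Drought over control as a difference of log2(FPKM + 1), KU50 on the horizontal and Xinxuan048 on the vertical axis, with the 132 members in red, 341 other eligible genes below 1 FPKM in both controls in dark grey and 18129 further eligible genes in light grey. Dotted lines mark the limit of 1 and the diagonal marks equal ratios; the members lie in a corner fixed by the rule, most of them close to the limits.

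MANES_09G025200, on chromosome 9 from base 3779466 to 3789354, stood apart from all other members. KU50 went from 0.721 FPKM in control to 177 under drought, and Xinxuan048 from 0.345 to 101. Its drought values lay at percentiles 98.4 and 96.6 of the listed genes, and it alone held 19.7% of the members' summed FPKM in KU50 drought and 15.4% in Xinxuan048 drought. MANES_06G147200, on chromosome 6 from 25029068 to 25031511, came next in the mean of its ratios and in the ratio of each cultivar. Its control value was 0.0502 FPKM for KU50, and it was unlisted for Xinxuan048, against 33.8 and 19.4 under drought in the same order. The log2 ratios came to 5.05 and 4.35.

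In all, 7 members reached 10 FPKM in both drought libraries, and they are named here after their values were seen. Besides these 2 genes they include MANES_05G063900, on chromosome 5 from 4878848 to 4879420, which was unlisted in both controls and had 21.6 FPKM in KU50 drought and 10.5 in Xinxuan048 drought. For MANES_15G157400 (chromosome 15, bases 12334453 to 12340228), KU50 went from 0.364 FPKM in control to 22.8 under drought and Xinxuan048 from 0.672 to 17.2. For MANES_08G070700 (chromosome 8, bases 10956809 to 10958551), KU50 went from 0.171 to 13.7 FPKM and Xinxuan048 from 0.251 to 10.7. These genes had at least 10 FPKM in both drought libraries and less than 1 FPKM in both controls, so the conditions did not overlap, which the rule fixes. MANES_05G144100 (chromosome 5, bases 20526797 to 20528273) had near-equal drought values, with KU50 going from 0.211 to 10.3 FPKM and Xinxuan048 from 0.0838 to 11.0. MANES_15G129300 (chromosome 15, bases 9842981 to 9847485) went from 0.200 to 14.1 FPKM for KU50 and from 0.529 to 10.7 for Xinxuan048. The rule kept these 7 genes under each of the 3 other scalings of the libraries that were tried. They were picked for at least 10 FPKM in both drought libraries, which nearly fixes this, so nothing is read from it. The other 30 members with a mean log2 ratio of at least 2 had 2.82 to 32.4 FPKM in KU50 drought and 2.28 to 17.7 in Xinxuan048 drought, with medians of 7.44 and 6.27. The 95 members with a mean log2 ratio below 2 had medians of 3.24 FPKM in KU50 drought and 2.92 in Xinxuan048 drought.

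Some members had no listed signal at all in watered leaves. In KU50 control 13 members were unlisted and in Xinxuan048 control 14, and 6 were unlisted in both. All 132 were listed in both drought libraries, which the rule fixes, since its limit on the ratio requires at least 1 FPKM under drought. Of the 6, MANES_05G063900 and MANES_17G106600 had the highest values under drought. Under drought MANES_17G106600 (chromosome 17, bases 24709910 to 24710788) had 6.03 FPKM for KU50 and 6.59 for Xinxuan048. The remaining 4 lay between 1.04 and 3.53 FPKM in KU50 drought and between 1.80 and 4.60 in Xinxuan048 drought. No fold is given for these 6 genes, since the number of fragments that could have been missed in a control library is not known for each.

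The limits of the rule cut through a continuous range. MANES_12G094000, on chromosome 12, was the member with the highest control value, at 0.977 FPKM for KU50, where drought gave 6.21, while Xinxuan048 had 0.571 (control) and 4.12 (drought). MANES_02G093800, on chromosome 2, fell just outside, at 1.01 FPKM in control and 4.96 under drought for KU50, and 0.778 and 4.32 for Xinxuan048. By ratio, the last gene inside was MANES_01G209400 on chromosome 1, with log2 ratios of 1.33 for KU50 and 1.002 for Xinxuan048. KU50 went from 0.709 to 3.30 FPKM and Xinxuan048 from 0.690 to 2.38. Just outside was MANES_12G101800 on chromosome 12, unlisted in both controls, with 10.2 FPKM in KU50 drought and 0.999 in Xinxuan048 drought. Near the limits, 19 members had a control value of at least 0.9 FPKM and 29 had a lower log2 ratio below 1.1. Just beyond them, the higher control value was from 1 to below 1.1 FPKM for 11 genes that reached the 2-fold limit in each cultivar, and 30 near-silent eligible genes had a lower ratio from 0.9 to below 1.

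Most near-silent genes listed in at least 1 library stayed near silent under drought. Without a minimum mean, 6538 genes on the chromosomes with a locus of at least 500 bases were below 1 FPKM in both controls. A gene unlisted in all 4 libraries is not counted, so 1 unlisted in both controls is among them only through a drought library. All such genes fall in the lowest control class below, and the shares are a description. Of the 6538, 5179, or 79.2%, were below 1 FPKM in both drought libraries as well. At least 2-fold higher in both cultivars were 148, or 2.26%, of which 16 failed the minimum mean of 1 FPKM and are not members. The share at least 2-fold higher in both cultivars depended on the control level. It was 0.930% of the 3442 genes whose higher control value was below 0.25 FPKM, 2.498% from 0.25 to below 0.5 and 4.89% from 0.5 to below 1. It was 7.02% from 1 to below 2 FPKM, 6.68% from 2 to below 5, and between 2.19% and 3.54% above that. The same added value of 1 that defines the ratio makes 2-fold harder to reach at the low end, so this order is in part a feature of the scale. At least 5 FPKM in both drought libraries was reached by 23 members. They were 6 genes, or 0.174%, of the lowest of these control classes and 2, or 0.135%, of the next. From 0.5 to below 1 FPKM they were 15, or 0.929%.

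**Figure D3:**
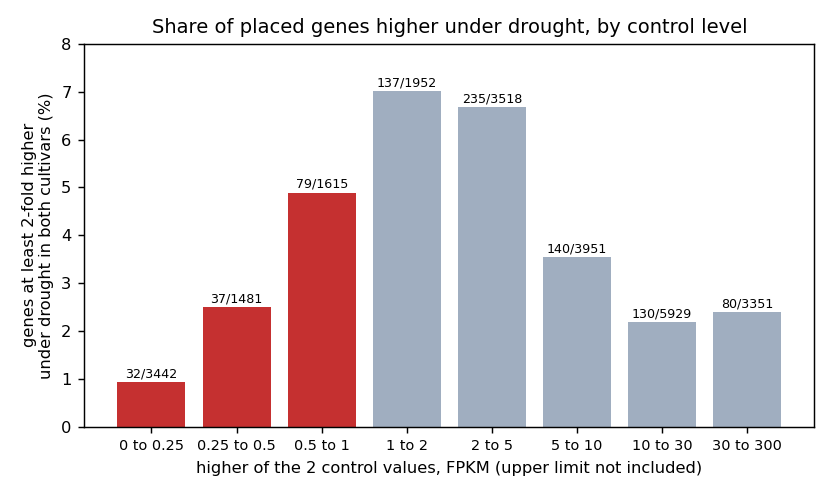
Percent of genes on the chromosomes, with loci of at least 500 bases and no minimum mean, that reached a 2-fold higher value under drought in each cultivar, by the higher of the control values in FPKM. Bars start at 0, numbers above them give genes over the class total, and red bars mark control values below 1 FPKM, where the share goes from 0.930% to 4.89%. Genes unlisted in all 4 libraries are not counted.

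Of the 6538 near-silent genes without a minimum mean, 426, or 6.52%, were at least 2-fold higher under drought in KU50 and 299, or 4.57%, in Xinxuan048. Those unlisted in both controls are among the 6538 only because a drought library listed them, so these shares are a description. Over all eligible genes the shares of the 2 cultivars were close to each other, at 10.8% and 10.3%. The eligible genes have a minimum mean and are mostly not near silent, so the sets are unlike and nothing is read from this contrast. Of 473 eligible genes below 1 FPKM in both controls, 265 were at least 2-fold higher in KU50 and 188 in Xinxuan048. The 132 members are 49.8% of the KU50 list and 70.2% of the Xinxuan048 list. A further 133 reached the limit in KU50 only, 56 in Xinxuan048 only and 152 in neither. Since the minimum mean admits a gene with low controls only through a high drought value in these same libraries, nothing is read from the counts among the 473. The cultivars were compared through 1 pair of libraries each, and the difference was not tested.

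Most members were less than 2-fold apart between the cultivars under drought, but this was a smaller share than among all eligible genes. How far the members were shifted towards KU50, relative to other genes, depended on the measure. A higher value in KU50 drought than in Xinxuan048 drought was found for 63.6% of members, near the 58.7% of all eligible genes and the 61.1% of non-members of like drought level, and below the 73.4% of the 718 other genes that reached the limit in each cultivar. The log2 ratio was higher in KU50 for 78 members and in Xinxuan048 for 54, or 59.1% higher in KU50, against 44.0% of all eligible genes, both as deposited. How the 2 ratios of a gene compare depends on the cultivar difference in control as well as under drought. The rule keeps the difference in control narrow for members only, so nothing is read from 59.1% against 44.0%. Under drought, 115 of 132 members were less than 2-fold apart between the cultivars, on the scale of log2(FPKM + 1). The shares further apart, beside those of all eligible genes, were as follows. At least 2-fold higher in KU50 drought were 14 members, or 10.6%, where 3.78% of eligible genes were. At least 2-fold higher in Xinxuan048 drought were 3 members, or 2.27%, where 2.53% of eligible genes were. The median log2 ratio of Xinxuan048 to KU50 under drought was -0.18 over the members and -0.08 over eligible genes. In control leaves the same median was 0.00 over the members, which the limit of 1 FPKM keeps narrow, and -0.13 over eligible genes. Among the 718 other genes, 7.38% were at least 2-fold higher in KU50 drought and 1.53% in Xinxuan048 drought. Among 2237 non-members with a mean drought value from 2.77 to 5.12 FPKM, the middle range of the members and what is meant by like level, the shares were 5.50% and 4.29%. The 341 other near-silent eligible genes passed the minimum mean only through a high drought library, so their shares are not set beside these. The rule used the drought values of the members, so all of these shares are a description.

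**Figure D4:**
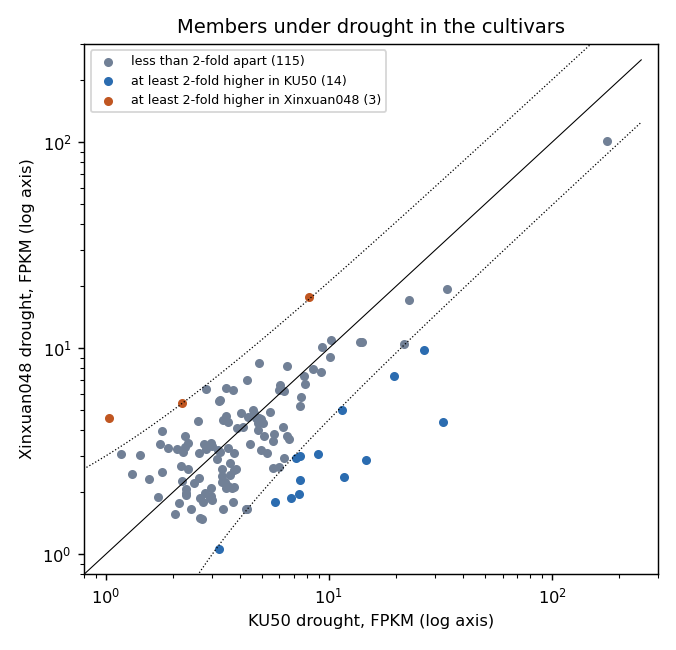
FPKM of the 132 members in KU50 drought and in Xinxuan048 drought, both on log axes, with a solid line at equal values and dotted lines where FPKM + 1 differs 2-fold. The 14 blue points are at least 2-fold higher in KU50, the 3 orange points at least 2-fold higher in Xinxuan048, and the 115 grey points lie between.

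The members furthest apart were higher in KU50. For MANES_17G119100 (chromosome 17, bases 26268595 to 26269377), KU50 went from 0.334 FPKM to 32.4 under drought, while Xinxuan048 went from unlisted to 4.39. It was the third most abundant member in KU50 drought, but lay at percentile 40.0 of the genes listed in Xinxuan048 drought. For MANES_02G098200 (chromosome 2, bases 7332462 to 7333405), KU50 went from 0.170 to 14.6 FPKM and Xinxuan048 from 0.340 to 2.86. Their log2 ratios of Xinxuan048 to KU50 under drought were -2.63 and -2.02. Both loci are short, and the 14 members higher in KU50 had a median locus length of 984.5 bases, against 2110 for the other 118 members. Of the 14, 7 were unlisted in at least 1 control library. The 7 others are what remains among the 111 members listed in all 4 libraries, where 2 were higher in Xinxuan048. The like shares of eligible genes listed in all 4 libraries are not given here, so nothing is read from 7 against 2.

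In the other direction MANES_15G184700 (chromosome 15, bases 21832987 to 21837860) went from 0.484 to 8.10 FPKM for KU50 and from 0.698 to 17.7 for Xinxuan048. MANES_08G034500 (chromosome 8, bases 3103102 to 3107662) went from 0.363 to 2.19 FPKM for KU50 and from 0.690 to 5.44 for Xinxuan048. The last of the 3, MANES_09G105100 on chromosome 9, named after its values were seen, was unlisted in both controls and had 1.04 FPKM in KU50 drought and 4.60 in Xinxuan048 drought. Its locus is the same as that of another listed gene, and the sources used here do not say whether strand was used in counting. Its value is therefore uncertain. The order of the members by level was shared in part. Of the 10 most abundant members in KU50 drought, 7 were among the 10 most abundant in Xinxuan048 drought, and Spearman's rho of the drought levels over 132 members was 0.516. This is a description across genes of 1 pair of libraries.

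The members' loci were shorter than those of other genes. Their median length was 1971 bases, with a range from 543 to 23461, against 3750 for all eligible genes. It was 2981 for the other near-silent eligible genes and 3378 for non-members of like drought level. The members and the other near-silent genes passed the minimum mean only through high drought values, so their lengths are a description. Loci under 2000 bases made up 50.8% of the members, 30.8% of the other near-silent genes, 26.0% of the non-members of like level and 21.5% of eligible genes. Locus length includes introns, so it differs from the transcript length that FPKM divide by, and the rule used it only as a minimum of 500 bases. The part of counting error or of transcript length in this difference was not tested.

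**Figure D5:**
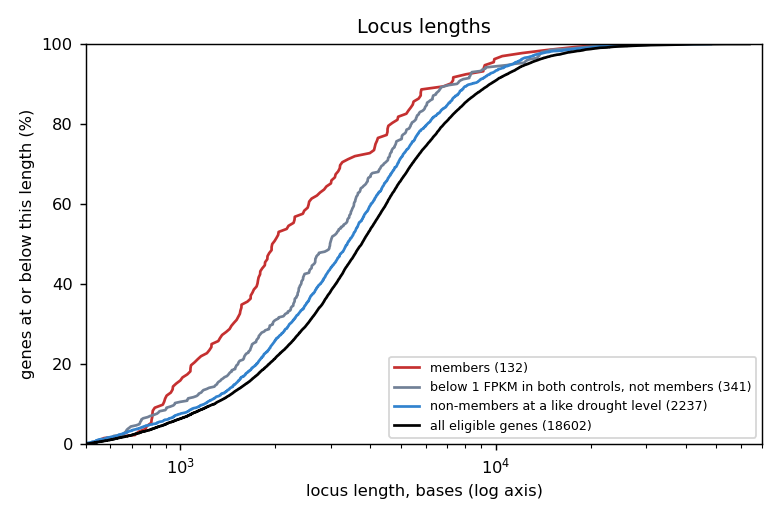
Cumulative percent of genes at or below a given locus length in bases, on a log axis, for the 132 members, 341 other near-silent eligible genes, 2237 non-members of like drought level and all 18602 eligible genes. The curve of the members lies to the left of the others over most of its length, with medians of 1971, 2981, 3378 and 3750 bases in that order.

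The members were scattered over the genome. Each of the 18 chromosomes held some, from 2 on chromosome 7 to 13 on chromosomes 8 and 15. As a share of its eligible genes, this was between 0.273% on chromosome 7 and 1.28% on chromosome 17, against 0.710% overall. A single pair of members were direct neighbours, so 2 of 132 members, or 1.52%, had another as the next listed gene, against 0.998% of non-members on the chromosomes. Within 5 gene positions, 3.03% of members and 4.89% of non-members had a member. The neighbouring pair lies 627 bases apart on chromosome 13. For MANES_13G108300 (bases 23333467 to 23334009), KU50 went from 0.604 to 4.71 FPKM and Xinxuan048 from 0.760 to 4.59. For MANES_13G108400 (bases 23334637 to 23337104), KU50 went from 0.946 to 3.53 FPKM and Xinxuan048 from 0.821 to 4.39. Both genes were therefore at like levels in each cultivar, and the pair may share reads if the genes are copies, which could not be examined without sequence.

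Genes next to a member were slightly higher under drought than genes in general. The 177 eligible non-members adjacent to a member had median log2 ratios of 0.47 in KU50 and 0.49 in Xinxuan048, on the scale of log2(FPKM + 1). Over all eligible genes the medians were 0.31 and 0.37. They were 0.37 and 0.40 over 460 eligible genes adjacent to a near-silent eligible gene that was not a member. The 460 leave out all near-silent eligible genes, and their near-silent neighbours passed the minimum mean only through a high drought library. At least 2-fold higher in both cultivars were 17 of the 177, or 9.60%, where 4.57% of eligible genes and 3.26% of the 460 were. These sets are unlike, since the 177 may hold near-silent genes and the 4.57% counts the members, which reach the limit by the rule. The 170 neighbours whose loci overlap no other gave medians of 0.47 and 0.49. Of the members themselves, 5 overlap another listed locus, or 3.79%, against 3.81% of eligible genes. All 5 have the same locus as another listed gene, so the locus length given for them may not be that of the gene itself.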

How the data were processed

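The authors deposited 1 file per library with a locus tag, a locus position and an FPKM value per gene. TopHat2 2.0.12 and Cufflinks are named in the submitters' processing notes, with no role or settings. Genome build and annotation are not given in the sources used here. No file lists a value of 0. Starts were read as counted from 0, since end minus start was a multiple of 3 in 78.7% of 624 loci under 400 bases, against 11.2% with 1 added, and are printed counted from 1. A damaged position in 1 library was taken from another library.

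FPKM were used as deposited, without scaling, and set on log2(FPKM + 1). Since each group has 1 library and the rule used both drought contrasts, no test was made. An additive fit over the 4 libraries was not used either: its drought term chose the members, and with both controls near 0 a difference between the drought libraries enters its cultivar term and its error alike. The members, lists and comparisons were chosen with earlier results of these data known. Genes were named by rank: by mean ratio, ratio in each cultivar, cultivar difference under drought (at least 5 FPKM in 1 drought library), level among members unlisted in both controls, adjacency and nearness to the limits. The selection and neighbour search were tested on simulated data. Alternatives were other pseudocounts, limits and 3 scalings. Python 3.11.15, pandas 2.3.3, numpy 2.4.6 and matplotlib 3.10.9 were used.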

Additional observations from a re-analysis of the deposited data

How the results depend on the processing

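Drought and control can be paired only by cultivar, with 1 library each, and no paired test was made. An additive fit that pairs them within each cultivar could be made but was not used, for the reason given with the processing. No library could be left out of a ratio. Of 64 alternative values, 38 kept within 1.5 times the count or length, or within 0.1 of the log2 median, and 26 did not. Apart from what an alternative itself sets, the cause was not tested for any of the 26. No log2 median changed sign, but little is read from that. Counts and lengths have no sign, and the rule set the members' drought ratios at 1 or more. The number of members, 132 as reported, was 222 with a pseudocount of 0.5 and 318 with 0.1. Upper-quartile scaling gave 76 and median-of-ratios scaling 70, all of them among the 132, and 70 with a mean of at least 2 FPKM. It was 53 for controls below 0.5 FPKM, 269 for controls below 2 FPKM and 25 for log2 ratios of at least 2. The rule kept 70 members under all 3 scalings, among them 32 of the 37 with a mean ratio of at least 2.

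With pseudocounts of 0.5 and 0.1 the members' median log2 ratio was 2.20 and 3.08 in KU50 and 2.004 and 2.79 in Xinxuan048. With upper-quartile and median-of-ratios scaling it was 1.55 and 1.51 in KU50 and 1.39 and 1.35 in Xinxuan048. These scalings moved the median of all eligible genes from 0.31 to 0.07 and 0.00 in KU50 and from 0.37 to 0.08 and 0.00 in Xinxuan048. Relative to it the members stood at 1.49 and 1.51 in KU50 and at 1.31 and 1.35 in Xinxuan048. The same scalings gave 0.21 and 0.14 for the neighbours of members in KU50 and 0.18 and 0.10 in Xinxuan048. Members at least 2-fold higher in KU50 drought were 7 of the 111 listed in all 4 libraries, against 14 of 132. Those higher in Xinxuan048 drought were 5 and 7 of 132 with pseudocounts of 0.5 and 0.1, against 3. Of the 18602 eligible genes, 595 and 730 were higher in Xinxuan048 drought with these pseudocounts, against 471. With either pseudocount the share of members lay above that of eligible genes, where as deposited it lay below. With so few members, nothing is read from this order. Members with a member as neighbour were 4 within 5 positions, 6 within 50 kb and 0 for log2 ratios of at least 2, against 2. The log2 ratio was higher in KU50 for 69 to 79 of the 132 members over the pseudocounts and scalings. Leaving out members with overlapping loci was chosen after the data were seen. Few fragments lie behind the control values of many members, which limits their precision.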
